A study of Homo sapiens with 3 samples.

Results

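The genes described here make, sense, move and store cholesterol and make fatty acids. They were chosen by name: 41 genes of sterol synthesis, of the SREBP pathway that controls it, of sterol uptake and transport, and of fatty acid synthesis and activation. All 41 were found among the 15808 genes of the count table after matching to GENCODE release 29. RNA sequencing was carried out on OCI-Ly10, an established human line of activated B cell-like diffuse large B cell lymphoma, in 3 libraries of a single group. The cells had been treated with MZ1 for 6 h. MZ1 is a degrader that tethers BET bromodomain proteins to the VHL ubiquitin ligase, so that they are marked for destruction. Untreated cells were not analysed here, and the values are therefore levels in treated cells and their spread between libraries, with no effect of MZ1 among them. Whether the replicates came from separate cultures is not stated in the labels, so p-values measure only the spread between these libraries, which may be technical.

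Cholesterol is built from acetyl-CoA through mevalonate, isoprenoid units, squalene and lanosterol. The SREBP transcription factors switch on these enzymes. They are held in the endoplasmic reticulum, bound to SCAP and retained there by INSIG proteins when sterols are plentiful, and are cut free when sterols run low. SREBF2 encodes the form that mainly drives sterol genes, and SREBF1 the form that mainly drives fatty acid genes. LXR receptors work in the other direction and induce the efflux pumps ABCA1 and ABCG1 and the ubiquitin ligase MYLIP when sterols accumulate. Dividing lymphoma cells use both branches to build membranes.

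The libraries held 5474462, 1441246 and 1314812 counts in replicates 1, 2 and 3. CPM values, counts relative to library size, were scaled with TMM factors, and 1 count equalled 0.200, 0.629 and 0.767 CPM. Where a library has none, the level may still reach 0.600, 1.89 or 2.30 CPM, the value of 3 counts, and these limits and all intervals cover counting error only. Replicate 1 stood apart. Pearson's r of log2(CPM + 0.5), taken across the 7510 genes that reached 10 CPM and that do not count as replicates, was 0.889 for replicates 2 and 3. With replicate 1 it was only 0.789 (replicate 3) and 0.735 (replicate 2). Genes annotated as antisense took 0.251% of the counts in replicate 1, against 2.04% in replicate 2 and 2.09% in replicate 3. The B cell markers MS4A1, CD79A, CD79B, PAX5 and CD74 had at least 17.6 CPM in every library. Of 13 listed markers of T cells, myeloid cells and epithelium, 5 were measured. KRT8 was the highest, at 45.8, 17.6 and 33.8 CPM in replicates 1, 2 and 3. The myeloid markers ITGAM (22.8, 16.3 and 19.2 CPM) and LYZ (6.20, 6.29 and 3.84 CPM) were also present in every library. CSF1R had 10, 3 and 1 counts, and CD2 had 7, 0 and 0.

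The sterol and fatty acid genes were well represented in these cells. Of the 41, 36 reached 1 CPM in every library, against 68.0% of all genes in the table. Together they took 0.375% of the counts in replicate 1 (exact Clopper-Pearson 95% interval 0.370 to 0.380%), 0.338% in replicate 2 (0.328 to 0.347%) and 0.416% in replicate 3 (0.405 to 0.427%). Levels are given as CPM per kb of merged exons from here on, so that genes can be compared. The median of the 41 mean levels was 9.06 CPM per kb, and it was 9.31 over the 40 genes that had a mean of at least 1 CPM. The median of all 13086 genes with such a mean and a known length was 3.15 CPM per kb. INSIG1 was the highest at 155 ± 33.9 CPM per kb (SD, n = 3), above 98.4% of those genes, and SCD followed at 94.4 ± 15.9, above 97.2% of them. FDPS, HMGCS1 and IDI1 had 58.4 ± 19.9, 53.5 ± 6.68 and 50.9 ± 7.32 CPM per kb. At the low end, DHCR7, ABCG1, ABCA1, CYP51A1 and MYLIP had between 0 and 10 counts over the 3 libraries together.

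**Figure D1:**
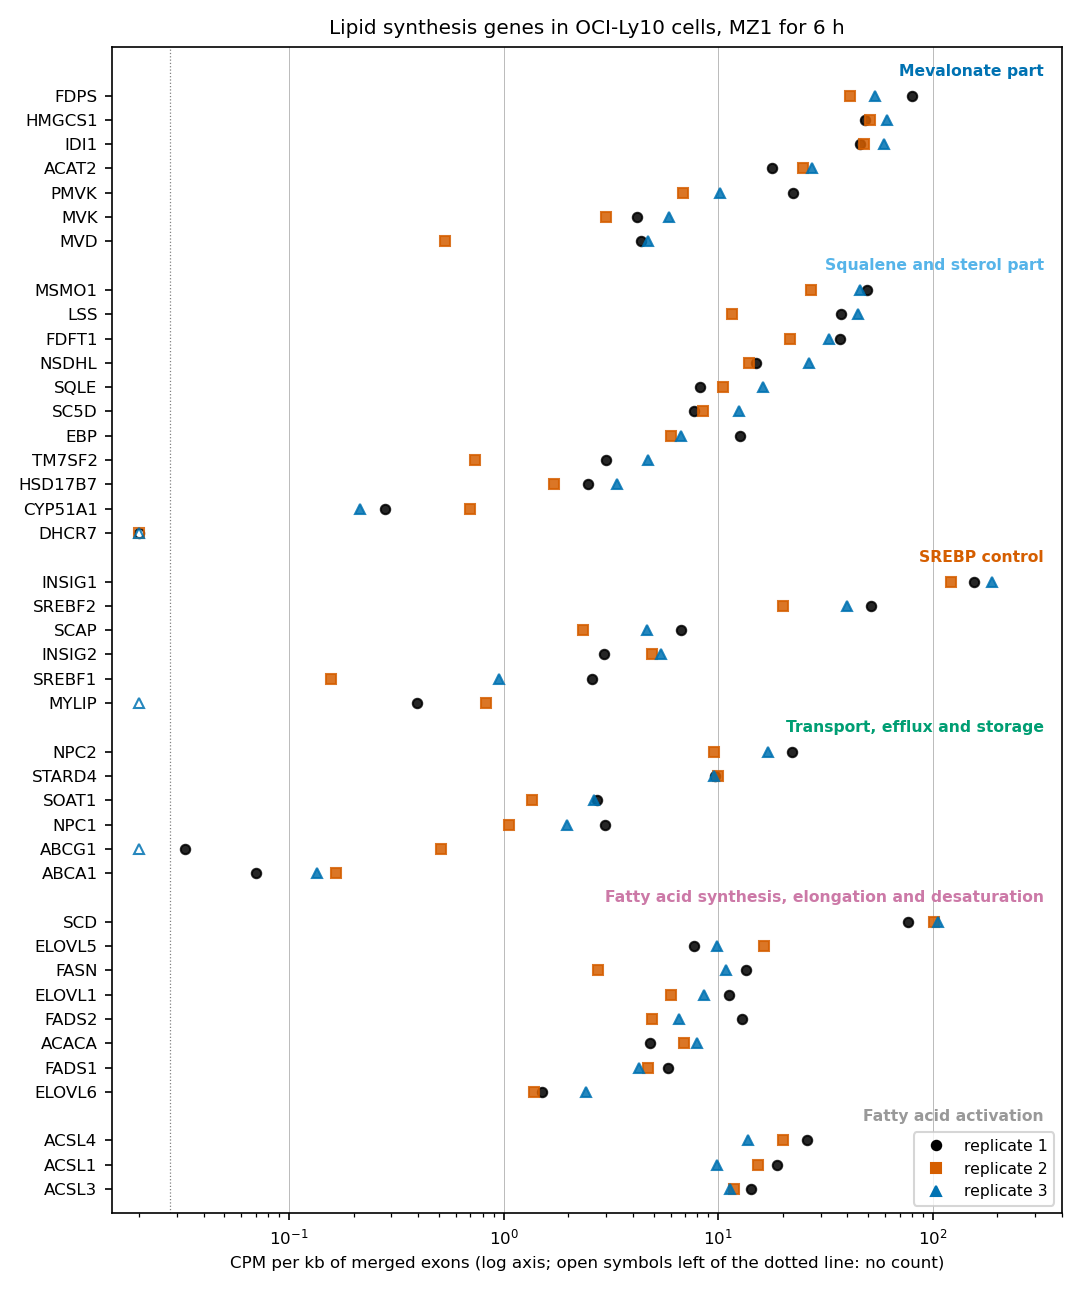
Level of each of the 41 genes in CPM per kb of merged exons on a log axis, 1 symbol per library, with the genes grouped by role and ordered by their mean. INSIG1 and SCD lie highest, and open symbols at the left edge mark a library without a count, as for DHCR7 in all 3.

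The proximal promoters of these genes are shown for the 4 highest members, INSIG1, SCD, FDPS and HMGCS1, and for SREBF2, the main regulator of sterol genes. Each sequence is the RefSeq reference (build GRCh38.p14) of the 250 bases before a transcription start, 5′ to 3′ along the gene. In each of these genes the window runs past the GENCODE start of the gene. Motif positions are therefore counted from a different start than the gene coordinates given below. Capitals mark the sterol regulatory element (the longest run of capitals, in SREBF2), its looser form TCACNCCAC, the E-box CACGTG and the CCAAT box, each searched on both strands, so that ATTGG is a CCAAT box on the other strand. GC boxes (GGGCGG) were searched too and left in lower case.
INSIG1, chr7:155297628-155297877, plus strand: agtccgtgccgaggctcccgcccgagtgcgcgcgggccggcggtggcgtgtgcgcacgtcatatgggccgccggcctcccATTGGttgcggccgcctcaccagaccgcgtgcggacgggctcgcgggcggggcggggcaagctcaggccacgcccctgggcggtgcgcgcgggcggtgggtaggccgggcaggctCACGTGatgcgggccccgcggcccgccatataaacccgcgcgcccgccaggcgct
SCD, chr10:100346983-100347232, plus strand: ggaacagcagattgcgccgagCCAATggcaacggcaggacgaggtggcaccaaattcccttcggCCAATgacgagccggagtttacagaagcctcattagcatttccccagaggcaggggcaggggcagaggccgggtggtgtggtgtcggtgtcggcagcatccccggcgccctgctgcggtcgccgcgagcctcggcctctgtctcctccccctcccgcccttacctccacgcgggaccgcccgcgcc
FDPS, chr1:155308616-155308865, plus strand: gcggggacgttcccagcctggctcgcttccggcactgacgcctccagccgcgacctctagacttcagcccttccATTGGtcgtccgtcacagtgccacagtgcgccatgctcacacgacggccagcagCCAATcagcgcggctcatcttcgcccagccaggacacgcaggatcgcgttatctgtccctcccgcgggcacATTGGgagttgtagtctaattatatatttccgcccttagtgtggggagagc
HMGCS1, chr5:43313413-43313662, minus strand: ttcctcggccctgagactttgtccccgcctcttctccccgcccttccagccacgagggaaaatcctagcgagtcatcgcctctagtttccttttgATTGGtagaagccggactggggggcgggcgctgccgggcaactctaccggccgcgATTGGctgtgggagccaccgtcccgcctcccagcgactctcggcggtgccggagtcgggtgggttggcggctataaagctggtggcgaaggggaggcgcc
SREBF2, chr22:41832855-41833104, plus strand: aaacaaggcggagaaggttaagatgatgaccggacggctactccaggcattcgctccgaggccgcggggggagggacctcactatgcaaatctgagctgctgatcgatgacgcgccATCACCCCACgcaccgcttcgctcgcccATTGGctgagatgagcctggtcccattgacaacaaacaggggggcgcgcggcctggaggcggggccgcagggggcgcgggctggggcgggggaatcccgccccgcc
The SREBF2 promoter holds the exact sterol regulatory element, at position -134 counted back from the start, and an ATTGG at -106. A match to the looser form overlaps that element. The INSIG1 promoter holds an E-box at -55 and an ATTGG at -170, SCD has CCAAT boxes at -229 and -186, HMGCS1 has ATTGG at -155 and -100, and FDPS has CCAAT boxes of either strand at -176, -122 and -51. Among these, the INSIG1 E-box and the FDPS box at -51 lie past the GENCODE start of their genes. The HMGCS1 ATTGG at -100 begins on the GENCODE start of HMGCS1 and runs into the gene, and the FDPS box at -122 ends on the GENCODE start of FDPS. Promoters of 300 bases (250 before and 50 after the start) were at hand for 36 of the 41 genes, and a gene counted as matched if any of its starts held the motif. The CCAAT box, which NF-Y binds beside SREBP at many sterol genes, was found for 26 of the 36 genes (72.2%), against 43.5% of the 10399 table genes with a promoter and 34.6% of all 35116 promoters. The GC box bound by SP1 was found for 34 genes (94.4%), against 74.8% of table genes and 45.0% of all promoters. The E-box was found for 6 genes, or 16.7%, against 12.5% of table genes and 7.26% of all promoters. SREBF2 alone among the 36 had the exact sterol regulatory element, which 0.0673% of table genes and 0.0456% of all promoters hold, and SREBF2 and ACSL1 had the looser form, found in 1.60% of table genes and 1.13% of all promoters. The 26 genes with a CCAAT box had a median level of 10.5 CPM per kb, against 3.22 for the 10 genes without, and the ranges overlapped (0 to 155 with the box and 0.124 to 19.9 without). Letters in a window are a description and not a binding site.

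The 7 mevalonate genes were all expressed, at 1 CPM or more in every library and with a median level of 23.4 CPM per kb. FDPS, which makes farnesyl diphosphate (ENSG00000160752.13, GRCh38 chromosome 1, 155308748 to 155320666, plus strand), had 80.2, 41.2 and 53.9 CPM per kb in replicates 1, 2 and 3, with the lowest value in replicate 2. HMGCS1, the HMG-CoA synthase that feeds the pathway (chromosome 5, 43289395 to 43313512, minus strand), had 48.3, 51.2 and 61.0 CPM per kb and was among the steadiest. IDI1, the isomerase that activates isoprenoid units, was nearly as even at 45.8, 47.7 and 59.3 CPM per kb. ACAT2, the cytosolic thiolase that joins acetyl-CoA units, had 17.9, 24.9 and 27.5 CPM per kb, lowest in replicate 1. The kinases MVK and PMVK, which phosphorylate mevalonate in turn, averaged 4.36 ± 1.47 and 13.1 ± 8.14 CPM per kb (SD, n = 3). MVD, the decarboxylase that completes the isoprenoid unit, was the lowest of the 7, at 4.37, 0.533 and 4.72 CPM per kb from 103, 4 and 29 counts. Replicates 1 and 3 were close to each other for MVD, and replicate 2 was far below both.

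In the squalene and sterol part, 9 of 11 genes reached 1 CPM in every library, and the median level of the 11 was 9.57 CPM per kb. MSMO1, a sterol methyl oxidase (chromosome 4, 165327623 to 165343160, plus strand), led with 49.4, 27.2 and 45.9 CPM per kb. LSS, which closes the sterol rings (chromosome 21, 46188141 to 46228824, minus strand), had 37.5, 11.6 and 44.6 CPM per kb. FDFT1, the squalene synthase, had 192, 113 and 172 CPM, or 30.6 ± 7.89 CPM per kb (SD, n = 3). In these 3 genes replicate 2 was the lowest library. SQLE, the squalene epoxidase and a control point of the pathway, had 8.27, 10.5 and 16.2 CPM per kb and was lowest in replicate 1. NSDHL, a sterol dehydrogenase, had 150, 44 and 69 counts, or 18.5 CPM per kb on average, and was highest in replicate 3. EBP, SC5D and HSD17B7, which reshape the sterol nucleus, averaged 8.46 ± 3.68, 9.57 ± 2.61 and 2.52 ± 0.832 CPM per kb (SD, n = 3). TM7SF2, a sterol reductase, had 2.99, 0.738 and 4.73 CPM per kb from 51, 4 and 21 counts, again lowest in replicate 2.

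Both of the genes that did not reach the limit act after lanosterol. DHCR7, the reductase that makes cholesterol in the last step of one branch (ENSG00000172893.14, chromosome 11, 71428193 to 71452868, minus strand), had no count in any library. Over the 3 libraries together the value of 3 counts is 0.380 CPM, and the exact Poisson 95% interval reaches 0.467 CPM. The annotation used for counting is not stated in the labels, so a gene lost in counting cannot be told apart from absent RNA, and the 0 is no limit on expression if it was lost. No exon of another gene overlaps DHCR7 in GENCODE release 29. CYP51A1, the lanosterol demethylase, had 5, 4 and 1 counts, or 1.27 CPM over the libraries together (exact Poisson 95% interval 0.607 to 2.33). Of its 3.58 kb of exons, 2844 bases are shared with AC000120.2 and AC000120.3 on the same strand, and 3 pseudogenes carry its name, so its count is uncertain.

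Among the SREBP regulators, INSIG1 and SREBF2 were far above their paralogues. INSIG1, the retention factor that is itself a well-known SREBP target (ENSG00000186480.11, chromosome 7, 155297776 to 155310235, plus strand), had 156, 121 and 189 CPM per kb in replicates 1, 2 and 3. INSIG2, its constitutive counterpart (chromosome 2, 118088452 to 118110997, plus strand), had 2.94, 4.93 and 5.44 CPM per kb. The values of the paralogues did not overlap, and INSIG1 lay above INSIG2 by a log2 ratio of 5.11 ± 0.55 per kb (SD, n = 3), a 34.6-fold difference. SREBF2 (chromosome 22, 41833079 to 41907308, plus strand) had 51.7, 20.0 and 39.8 CPM per kb. SREBF1 (chromosome 17, 17810399 to 17837002, minus strand) had 2.59, 0.157 and 0.955 CPM per kb, from 104, 2 and 10 counts. SREBF2 lay above SREBF1 in all 3 libraries, by log2 ratios of 4.29, 6.52 and 5.29, the middle one of which rests on 2 counts of SREBF1, and without replicate 2 the mean was 4.79. SCAP, the escort of SREBP proteins, had 6.68, 2.34 and 4.65 CPM per kb. MYLIP, the ligase that marks lipoprotein receptors for degradation, had 6, 4 and 0 counts, or 1.27 CPM over the libraries together (exact Poisson 95% interval 0.607 to 2.33).

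The efflux pumps had under 10 counts each, while genes that move sterols inside the cell were expressed. ABCA1, which loads cholesterol onto apolipoproteins, had 4, 3 and 2 counts, and ABCG1, which exports it to HDL particles, had 1, 5 and 0 counts. Over the 3 libraries together this is 1.14 CPM for ABCA1 (exact Poisson 95% interval 0.521 to 2.16) and 0.760 CPM for ABCG1 (0.279 to 1.65). Which of the pumps is higher cannot be read at this depth. NPC2 and NPC1 pass cholesterol out of lysosomes, the first as a soluble carrier and the second in the membrane. NPC2 had 22.1, 9.60 and 17.0 CPM per kb, against 2.97, 1.06 and 1.97 CPM per kb for NPC1, and the ratio was nearly the same in each library, with a mean log2 ratio of 3.04 ± 0.14 (SD, n = 3). Both genes were lowest in replicate 2. STARD4, a cytosolic sterol carrier (chromosome 5, 111496033 to 111512590, minus strand), had 9.67, 9.95 and 9.58 CPM per kb and was the steadiest gene of all 36 that could be tested. SOAT1, which esterifies cholesterol for storage, had 2.74, 1.35 and 2.63 CPM per kb.

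All 8 genes of fatty acid synthesis, elongation and desaturation reached 1 CPM in every library, with a median level of 8.34 CPM per kb. SCD, the desaturase that makes monounsaturated fatty acids (ENSG00000099194.5, chromosome 10, 100347124 to 100364834, plus strand), had 76.3, 101 and 106 CPM per kb. It stood well above the other 7 genes, of which ELOVL5 had the highest mean. ACACA, the carboxylase that commits acetyl-CoA to fatty acids, had 4.81, 6.91 and 7.96 CPM per kb. FASN, the fatty acid synthase (chromosome 17, 82078333 to 82098332, minus strand), had 13.5, 2.75 and 10.9 CPM per kb. FASN lay above ACACA in replicates 1 and 3 and below it in replicate 2, and the mean log2 ratio of 0.21 ± 1.41 (SD, n = 3) was smaller than its spread. ELOVL5, which extends polyunsaturated chains, had 7.71, 16.3 and 9.86 CPM per kb, ELOVL1, which makes very long saturated chains, had 11.2, 6.02 and 8.57, and ELOVL6, which extends palmitate, had 1.51, 1.38 and 2.42. ELOVL5 lay above ELOVL6 in 3 of 3 libraries, with a mean log2 ratio of 2.61 ± 0.79, while ELOVL5 and ELOVL1 changed places between replicate 1 and the others. FADS1 and FADS2 are the desaturases of polyunsaturated fatty acids. FADS1 had 5.84, 4.73 and 4.27 CPM per kb, and FADS2 had 12.9, 4.90 and 6.54. FADS1 lay below FADS2 in 3 of 3 libraries, by a mean log2 ratio of -0.60 ± 0.54, but by only -0.05 in replicate 2. When the longest transcript gave the length, the mean was -0.54 and the order no longer held in every library.

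The acyl-CoA synthetases ACSL4, ACSL1 and ACSL3, which activate long-chain fatty acids for use, were expressed at like levels. ACSL4, which prefers arachidonate and is tied to ferroptosis, had 25.9, 20.0 and 13.8 CPM per kb. ACSL1 had 18.7, 15.4 and 9.89 CPM per kb. ACSL3, a lipid droplet enzyme, had 14.3, 11.8 and 11.4 CPM per kb. In all 3 genes replicate 1 was the highest library and replicate 3 the lowest. ACSL4 lay above ACSL1 by nearly the same log2 ratio in each library (0.47, 0.37 and 0.47 in replicates 1, 2 and 3), with a mean of 0.09 when the longest transcript gave the length, whereas ACSL3 lay below ACSL1 in replicates 1 and 2 and above it in replicate 3.

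**Figure D2:**
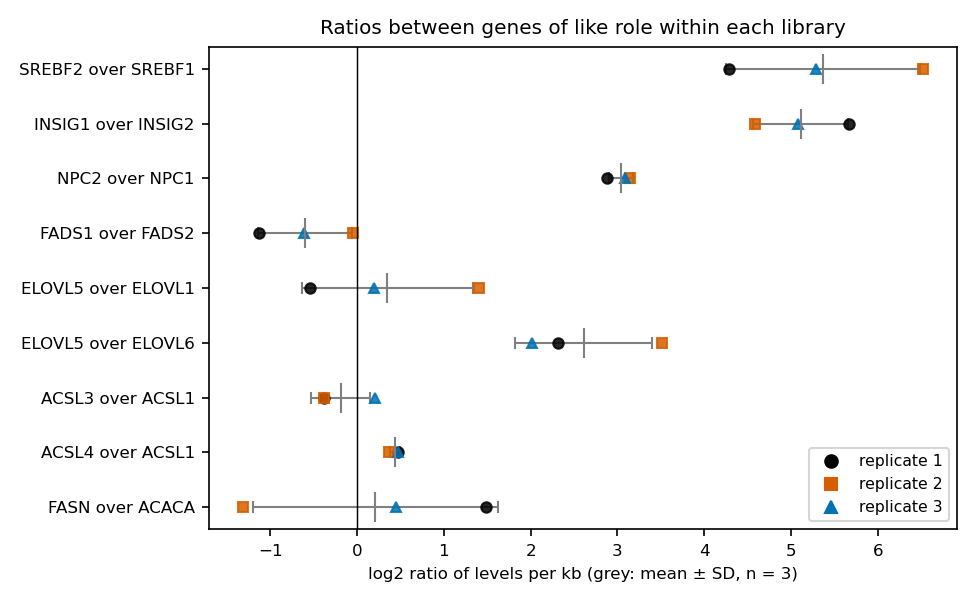
Log2 ratio of the levels per kb (with 0.5 CPM added to each gene) for 9 pairs of genes of like role, 1 symbol per library, with the mean and SD in grey; ABCA1 over ABCG1, from under 10 counts each, is not drawn. SREBF2 over SREBF1 and INSIG1 over INSIG2 lie above 4 in every library, and FASN over ACACA lies on both sides of 0.

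Ratios were computed for 10 such pairs, the efflux pumps included. With 3 libraries the exact two-sided sign-flip permutation test cannot give a p under 0.25, so no pair could pass 0.05. The pairs with the same order in 3 of 3 libraries (SREBF2 over SREBF1, INSIG1 over INSIG2, NPC2 over NPC1, FADS1 under FADS2, ELOVL5 over ELOVL6 and ACSL4 over ACSL1) had p = 0.25 in that exact test and 0.417 after Benjamini-Hochberg adjustment over the 10 pairs.

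The 3 libraries were not alike for most of these genes. Each gene's 3 counts were set against equal expression by a chi-square test. It covered the 10016 genes whose counts averaged 10 or more, with Benjamini-Hochberg adjustment over all of them, and compares libraries and not conditions. Of the 36 genes that could be tested, 32 (88.9%) differed between libraries by more than counting noise at an adjusted p of 0.05, against 67.2% of all genes tested. The call depends on depth, and where counts averaged 50 or more it was 27 of 29, against 81.1%. The 4 that did not pass were STARD4, HSD17B7, ELOVL6 and FADS1 (adjusted p = 0.969, 0.187, 0.145 and 0.0604). Without replicate 1, 15 of 35 varied, against 33.8% of all genes tested, without replicate 2 it was 20 of 36, against 45.2%, and without replicate 3 it was 24 of 36, against 56.2%. A ratio of at least 4 between the highest and the lowest library (with 0.5 CPM added) was reached by 4 genes that varied, or 11.1% of those tested, against 15.6% of all genes. The smallest adjusted p-values were those of LSS (1.71e-46), SREBF2 (6.76e-46) and FASN (8.34e-26), all highest in replicates 1 or 3 and lowest in replicate 2. The 4 genes past 4-fold were SREBF1 at 12.1-fold, MVD at 7.55-fold, TM7SF2 at 5.51-fold and FASN at 4.84-fold (adjusted p = 4.34e-08, 1.00e-05, 0.00168 and 8.34e-26), and in all 4 the lowest library was replicate 2.

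GC content moved with the differences between libraries. These 4 genes are rich in G and C, with 62.8% in SREBF1, 63.7% in MVD, 64.2% in TM7SF2 and 65.3% in FASN. Replicate 2 was below replicate 1 for 26 of the 36 tested genes, against 56.3% of all genes tested, and was the lowest library for 22 of them, against 40.2%. The other 10 were higher in replicate 2, against 43.7% of all genes. Replicate 1 was the highest library for 18 of the 36, against 43.8%. Of the 10 tested genes with the highest GC content (57.1 to 65.3%), 10 were lower in replicate 2 than in replicate 1, with a median log2 difference of -1.66. Of the 10 with the lowest (34.2 to 41.2%), 5 were lower in replicate 2, with a median of -0.04. Across the 36 genes, which share the libraries, Spearman's rho of GC content with the log2 difference of replicate 2 minus 1 was -0.692, and it was -0.435 across the 7494 genes that reached 10 CPM and have an annotated transcript. With those genes cut into 8 bins by GC content, the median difference in the highest bin was -1.37. The part of GC content in each gene's values was not tested.

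**Figure D3:**
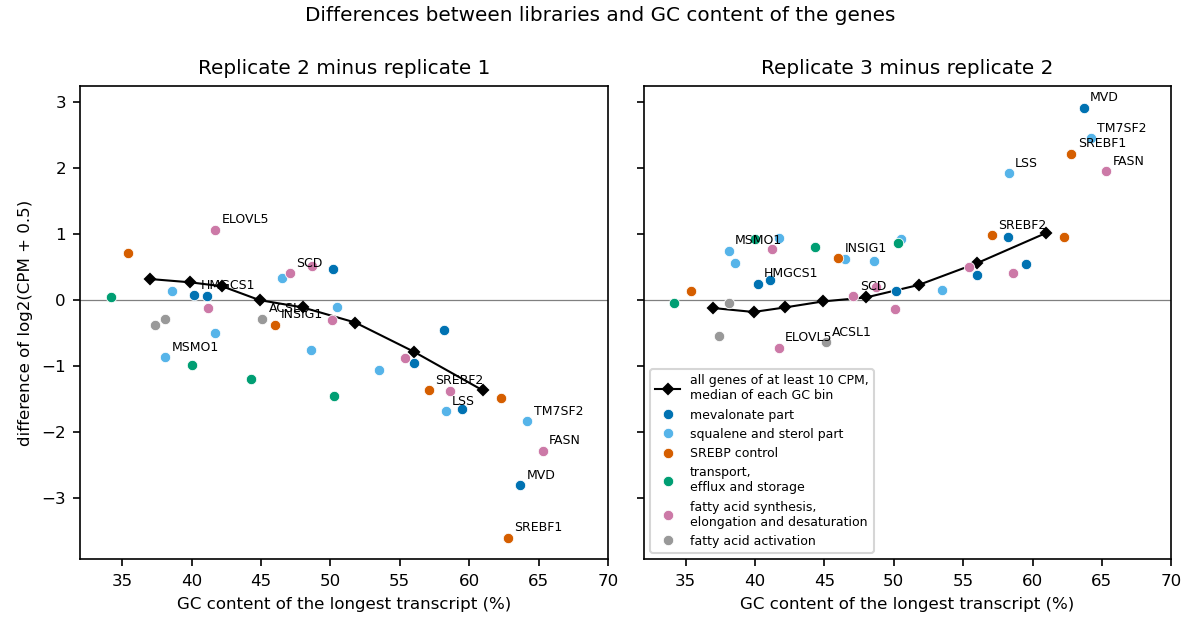
Difference in log2(CPM + 0.5) between libraries, plotted against the GC content of the longest transcript, for the 36 tested genes (points coloured by role) and for all genes of at least 10 CPM (black line, median of each of 8 GC bins). SREBF1, MVD, FASN and TM7SF2 lie lowest in the left panel and are all above 60% GC.

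The sterol synthesis genes with enough counts to be tested lay on the same side between replicates 3 and 2 under TMM scaling. The 16 tested sterol synthesis genes were each higher in replicate 3 than in replicate 2, with a median log2 difference of 0.61 and a range of 0.14 to 2.92. Many of these differences were small. With replicates 2 and 3 alone, 2 of 7 mevalonate genes and 5 of 9 squalene and sterol genes passed the chi-square test, against 33.8% of all genes tested. The rest did not pass it. Under scaling by column totals, 15 of the 16 were higher in replicate 3, with ACAT2 on the other side. Over all genes described here it was 30 of 36, against 55.1% of all genes tested, and 6 of 36 were lower, against 44.9%. The 3 acyl-CoA synthetases lay on the other side, with differences of -0.64 for ACSL1, -0.54 for ACSL4 and -0.04 for ACSL3. GC content moved with this difference too, with a Spearman's rho of 0.584 across the 36 genes and 0.466 across all 7494. The 5 sterol genes in the lower 4 GC bins (MSMO1, SC5D, HMGCS1, IDI1 and HSD17B7) were higher in replicate 3 by 0.25 to 0.94, and the medians of all genes in their bins lay between -0.18 and -0.11. Of the 16, 12 were above the median of their own GC bin, 4 of 7 in the mevalonate part and 8 of 9 in the squalene and sterol part. The part of GC content in this difference was not tested. Against replicate 1, replicate 3 was higher for 11 of the 16, with differences between -1.10 and 0.96, and over all 36 it was lower for 19, against 55.4% of all genes tested.

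Exons of 16 of the 41 genes overlap exons of a gene on the other strand, and the sources used here do not state whether the libraries or the counting kept strand. RUSC1-AS1, which shares 693 exon bases with FDPS, had 4, 75 and 90 counts in replicates 1, 2 and 3. AC114947.2, which shares 703 bases with HMGCS1, had 0, 17 and 46 counts. Both had few or no counts in replicate 1, the deepest library, and more in the others. STARD4-AS1 had 15, 5 and 4 counts and IDI2-AS1, opposite IDI1, had 30, 9 and 18. FADS1 and FADS2 share 490 bases with each other on opposite strands, and SREBF1 shares 556 bases with RAI1, which had 32, 2 and 1 counts. Of the 4.30 kb of ACAT2 exons, 2247 bases are shared with SOD2, SOD2-OT1 and TCP1 on the other strand. TCP1 shares 397 of them and had 674, 534 and 669 CPM. Without strand, a read in such a stretch cannot be assigned to either gene. Among the 21 tested genes with no such overlap, 19 varied among the libraries, and 13 of 15 with overlap did, against 67.2% of all genes tested. FDPS also has 8 pseudogenes that carry its name, HSD17B7 has 2, and SCD and FADS2 have 1 each, and reads of near-identical copies can be split between them.

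A list of further genes of the pathway was counted in the same way, and 31 of its 34 genes were measured. Of these, 28 reached 1 CPM in every library, against 68.0% of all genes, and 13 of 28 tested varied among the libraries, against 67.2% of all genes tested. Their median level was 4.80 CPM per kb. UBE2G2, a ubiquitin-conjugating enzyme that acts in the degradation of sterol-regulated proteins, was the highest by mean CPM, with 171, 174 and 175 CPM in replicates 1, 2 and 3. OSBP, which exchanges sterols between membranes, had 96.0, 98.7 and 84.4 CPM, and ELOVL2 was the lowest with 4, 2 and 1 counts. UBE2G2 and OSBP did not pass the chi-square test of variation among the libraries (adjusted p = 0.954 and 0.455). NR1H2, which encodes the broadly expressed LXR receptor, had 33.2, 15.1 and 46.8 CPM, and NR1H3, the other LXR gene, had 14, 1 and 4 counts. Both were chosen after their values were seen.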

How the data were processed

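Libraries were made with a TruSeq RNA kit, per the labels' protocols. The authors deposited raw counts per gene. STAR, edgeR and the hg38 build are named in the submitters' processing notes, without versions or roles. The authors also deposited log2 CPM values for the same genes, which could be rebuilt from the counts with 0.452 CPM added and 1 constant per library, and were used as an alternative.

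Counts were scaled with TMM factors (0.914, 1.10 and 0.991 in replicate order) from edgeR 4.0.16 under R 4.3.3, and log2 values are log2(CPM + 0.5). Replicates 2 and 3 are far shallower than replicate 1, so their values are less precise. Symbols, positions, merged exon lengths, transcript GC content and exon overlaps (bedtools 2.31.1) came from GENCODE release 29 on GRCh38, which matched 15668 IDs. With 1 group there is no contrast, so libraries were compared with a chi-square test (scipy 1.17.1), tested on simulated data. Genes named in full are, in each role, the 2 highest and the lowest per kb, members of pairs and those that varied at least 4-fold; the rest are given too. Some genes of the pathway and marker lists are not reported here. Alternatives were DESeq2 1.42.0 size factors, column totals, the deposited values, other pseudocounts, thresholds, filters and lengths, and leaving out each replicate. The genes, lists, pairs and tests were chosen with earlier results of these data known.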

Additional observations from a re-analysis of the deposited data

How the results depend on the processing

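The number of genes at 1 CPM or more in every library was 35 to 38 of 41 under every alternative run. The share that varied among the libraries was 88.9%. It lay between 77.5% and 94.1% with other size factors, column totals, other count filters and without genes that have opposite-strand overlap. That range includes a setting, added after seeing the data, that also left out genes with pseudogenes or with same-strand overlap with a protein-coding gene. The share of all genes tested was 67.2%, and it was 51.0% with no filter on counts and 81.1% at a mean count of 50. Leaving out each replicate gave 42.9% to 66.7%, against 33.8% to 56.2% of all genes. The median level of the 41 genes was 5.42 as log2(CPM + 0.5) and 5.85 with the deposited log2 values, whose library constants are 0.663, 0.751 and 0.801 times the column totals, and it was 5.35 to 5.60 with a replicate left out. Of 10 pair ratios, 6 kept their sign in every setting run. Also among the 6, without division by length NPC2 over NPC1 was 1.16 (3.04 per kb) and ELOVL5 over ELOVL6 was 1.67 (2.61 per kb). With the longest transcript ACSL4 over ACSL1 was 0.09 (0.44 with merged exons). The other pair ratios turned with some settings. FASN over ACACA (0.21) was -0.26 without division by length and -0.05 with the longest transcript, and -0.43 to 0.97 with a replicate left out. ACSL3 over ACSL1 (-0.19) was 0.02 without division by length. ELOVL5 over ELOVL1 (0.35) was -0.17 to 0.80 with a replicate left out. ABCA1 over ABCG1 (-0.12), from under 10 counts each, was 0.77 without division by length, 0.05 with the deposited values and 0.75 with a pseudocount of 0.1 CPM, and -0.75 to 0.53 with a replicate left out. The cause of these turns was not tested. Of 168 mean levels of the 28 named genes under other settings, 11 moved by over 1 SD, 9 of them with the deposited values. Replicate 3 was above replicate 2 for 30 of 36 genes (55.1% of all genes tested), for 29 with DESeq2 size factors (51.2%) and for 27 with column totals (46.9%), and these 29 and 27 were among the 30. No paired analysis was possible because the libraries form 1 group. Depth limits what can be said of CYP51A1, MYLIP, ABCA1 and ABCG1, and for DHCR7 a loss in counting cannot be told apart from absent RNA.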
